A study of Mus musculus with 4 samples.

Results

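The genes described here are those of the epidermal growth factor (EGF) receptor system: the ligand genes Hbegf, Ereg, Areg, Tgfa, Btc and Nrg1, the receptor genes Egfr, Erbb2 and Erbb3, and Errfi1, which encodes an inhibitor of the EGF receptor kinase. They were chosen by name, with earlier results of these data known. A probe set was taken as a member when the platform annotation gave it 1 of these symbols and no other. This found 21 of the 45101 probe sets on the array, for 9 of the 10 genes. Areg is not analysed here. Of the 21 probe sets, 16 passed a filter on low signal, and each of the 9 genes had at least 1 of them.

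The cells were primary cultures of palatal mesenchyme, the connective tissue of the developing roof of the mouth, taken at embryonic day 14 from mice that the labels call outbred wild-type. Of 4 cultures, 1 was given 5Z-7-Oxozeaenol, an inhibitor of the Tak1 kinase, for 60 minutes and then TGF-beta2 for 120 minutes, and 1 was given SB431542, an inhibitor of the TGF-beta type I receptor kinase, for 60 minutes and then TGF-beta2 for 120 minutes. The third received TGF-beta2 alone for 120 minutes and the fourth was untreated. RNA of each culture was read on 1 Affymetrix array, so every value is a single reading, no spread between cultures could be estimated, and no p-value is given. No culture received an inhibitor without TGF-beta2, and the sources used here give no inhibitor doses.

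Ligands of the EGF family are made as membrane-bound precursors that metalloproteases cut free. They bind receptors of the ErbB family, which pair on binding and signal through Ras to the kinase ERK. Erbb2 binds no known ligand of its own and Erbb3 has little kinase activity, so both work mainly as partners in such pairs. ERK signalling switches on early genes, among them Hbegf and Errfi1, so that a ligand and an inhibitor of the receptor are made in the same response. Mice that lack Egfr can be born with a cleft palate.

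Signals are on the deposited linear scale, which the authors had adjusted to equal levels between arrays. The filter kept probe sets whose mean of the 4 readings, taken on the log2 scale, was at least 66.1, the median over all of them. Differences are given as log2(signal + 21.7) of the first-named array minus that of the second, and a gene is counted as higher or lower when this reaches 2-fold. The brightest kept probe set stands for its gene, and 11744 genes were kept in all. Signals of different probe sets are not compared with each other. In every probe set that stands for 1 of the 9 genes, all 4 arrays read above 66.1.

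Markers of mesenchyme were bright, and 8 of 10 were kept, with Col1a2, a collagen gene, at 17662 to 20569. Their summed signal was 68837 with 5Z-7-Oxozeaenol, 74911 with SB431542, 65230 with TGF-beta2 alone and 64691 in the untreated culture. Some, named here after their values were seen, read lower on the TGF-beta2 array that 3 comparisons share: Pdgfra, a growth factor receptor gene, gave 3386, 3835, 1704 and 3643 in that array order, and Shox2, a transcription factor gene, gave 2023, 1718, 842 and 1487. Others did not, such as Col1a1, another collagen gene, which gave 12362, 12636, 12926 and 10690 in that order. Osr2 and Tbx22, transcription factor genes tied to the palate, read at most 30.4 on any array. All 8 macrophage markers were kept, and their summed signal was 43353 with 5Z-7-Oxozeaenol, 49017 with SB431542, 47406 with TGF-beta2 alone and 49604 in the untreated culture. Of 12 epithelial markers 10 were kept, with a summed signal of 8822, 2912, 2877 and 2994 on the same arrays in that order. Of 6 endothelial markers 1 was kept, of 6 skeletal muscle markers 3, and of 6 Schwann cell and neural crest glia markers none. Fewer cells of a type and less RNA per cell cannot be told apart in such cultures.

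Hbegf, Ereg and Errfi1 were, of the 9 genes, those whose signals differed most. All 3 were far lower with 5Z-7-Oxozeaenol than on any other array. Hbegf, which encodes heparin-binding EGF-like growth factor, was also more than 2-fold higher with TGF-beta2 alone than untreated, and with SB431542 both Hbegf and Errfi1 were more than 2-fold under TGF-beta2 alone. The receptor genes, and the ligand genes Tgfa and Btc, stayed within 2-fold in each of the 6 comparisons by the probe set that stands for the gene.

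**Figure D1:**
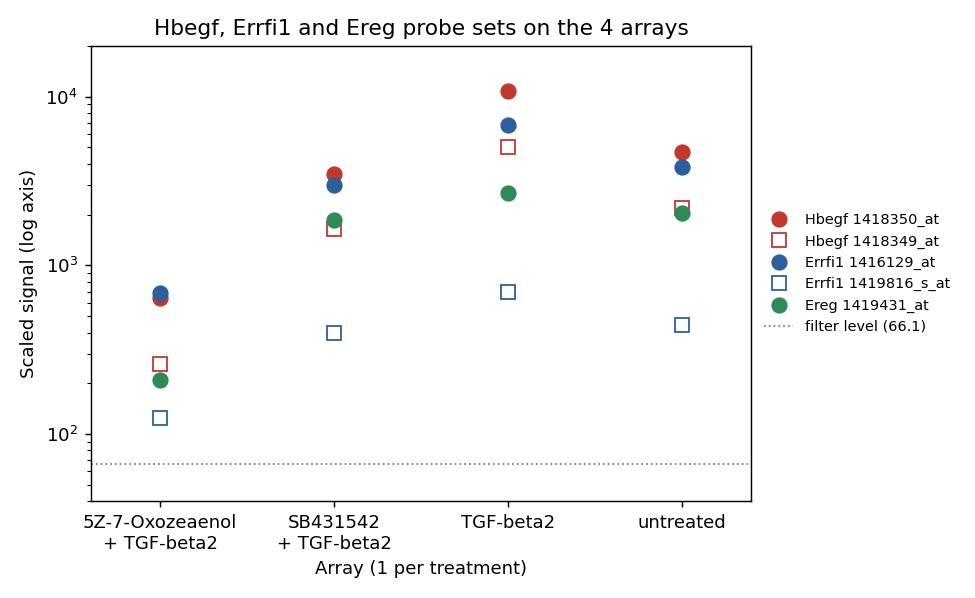
Signals of the kept probe sets of Hbegf, Errfi1 and Ereg (vertical log axis, scaled signal) on the 4 arrays, 1 array per treatment, with no error bars because there are no replicates. Every probe set reads lowest with 5Z-7-Oxozeaenol and highest with TGF-beta2 alone, and all stay above the filter level of 66.1.

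Hbegf was read by 2 probe sets. Probe set 1418350_at gave 639.5 with 5Z-7-Oxozeaenol, 3488 with SB431542, 10779 with TGF-beta2 alone and 4733 in the untreated culture. Probe set 1418349_at gave 261, 1654, 5038 and 2174 on the same arrays in that order. Both put the arrays in the same order, with TGF-beta2 alone highest, the untreated culture next, SB431542 under it and 5Z-7-Oxozeaenol far below all 3.

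With TGF-beta2 over untreated, the log2 differences of the 2 Hbegf probe sets were 1.18 and 1.20, or 2.27-fold and 2.30-fold higher. Over all kept genes, 0.673% were at least 2-fold higher in this comparison, and Hbegf was the 1 of the 9 genes to be so. It ranked 52 from the highest of 11744 genes. None of the 9 genes was at least 2-fold lower, where 0.366% of kept genes were.

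SB431542 with TGF-beta2 left Hbegf 3.08-fold lower than TGF-beta2 alone by the brighter probe set (log2 −1.62) and 3.02-fold lower by the other (log2 −1.59). Against the untreated culture the same array differed by −0.44 and −0.39 on the log2 scale, within 2-fold. With 5Z-7-Oxozeaenol, Hbegf was 16.3-fold and 17.9-fold lower than with TGF-beta2 alone, log2 differences of −4.03 and −4.16. This placed Hbegf at rank 8 from the lowest of 11744 genes. It also lay 7.19-fold and 7.78-fold under the untreated culture. Between the inhibitors, Hbegf was 5.31-fold and 5.94-fold lower with 5Z-7-Oxozeaenol than with SB431542. Over the 6 comparisons the 2 probe sets differed from each other by at most 0.16 on the log2 scale.

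Ereg encodes epiregulin, a ligand of the EGF receptor and of ErbB4, and had 1 probe set. It gave 210.1 with 5Z-7-Oxozeaenol, 1867 with SB431542, 2676 with TGF-beta2 alone and 2042 in the untreated culture. The first reading stands far below the other three, which lie within 2-fold of each other. Ereg was 11.6-fold lower with 5Z-7-Oxozeaenol than with TGF-beta2 alone (log2 −3.54), 8.15-fold lower than with SB431542 (log2 −3.03) and 8.90-fold lower than in the untreated culture (log2 −3.15). It ranked 12, 8 and 8 from the lowest in these comparisons. TGF-beta2 over untreated gave 0.39 and SB431542 over TGF-beta2 alone gave −0.51, both within 2-fold, and no other probe set of Ereg was there to set beside these values. In the RefSeq gene table (GRCm38.p6), Ereg, Areg and Btc follow each other on chromosome 5 with no other protein-coding gene listed between them, and Btc, described below, was within 2-fold where Ereg was not.

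Errfi1 encodes Mig6, which binds the EGF receptor kinase and blocks it. Probe set 1416129_at gave 683 with 5Z-7-Oxozeaenol, 3002 with SB431542, 6764.5 with TGF-beta2 alone and 3830.4 in the untreated culture. Probe set 1419816_s_at, dimmer on every array, gave 125, 398, 696 and 441 in that order. As with Hbegf, the TGF-beta2 reading was highest and the 5Z-7-Oxozeaenol reading lowest in both probe sets.

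With TGF-beta2 over untreated, the Errfi1 probe sets differed by 0.82 and 0.63 on the log2 scale, under the 2-fold rule. SB431542 over TGF-beta2 alone gave −1.17 by the brighter probe set, 2.24-fold lower, and −0.77 by the dimmer one, which was not 2-fold. The mean of both was −0.97, so the count of Errfi1 as 2-fold lower with SB431542 rests on the brighter probe set. With 5Z-7-Oxozeaenol it was 9.64-fold lower than with TGF-beta2 alone by the brighter probe set (log2 −3.27) and 4.89-fold lower by the dimmer one (log2 −2.29). Against the untreated culture the folds were 5.47 and 3.15, and against SB431542 they were 4.29 and 2.86, all lower with 5Z-7-Oxozeaenol.

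Errfi1 is shown with its promoter because it is the gene of the responsive set for which the RefSeq promoter table held a window. The table, of build GRCm38.p6, covers 250 bases before to 50 bases after a gene start and held 7 windows of 6 of the 10 genes, Areg, Btc, Egfr, Erbb2, Errfi1 and Tgfa. These were searched on both strands for TGANTCA (the AP-1 motif), TGACGTCA (the cAMP response element, CRE), GTCTAGAC (a Smad palindrome), GCGNGGGCG (an EGR motif) and the CArG box of the serum response factor, a set chosen after the windows had been read. The CRE was found in 2 windows, 1 of the 2 of Errfi1 and that of Areg, and the other motifs in none, so no matches overlapped. Of all 32851 windows in the table, 1.79% hold this CRE, 7.81% the AP-1 motif, 0.213% the Smad palindrome, 5.55% the EGR motif and 1.63% the CArG box. The Errfi1 window shown lies at chr4:150854820-150855119 on the plus strand, and the CRE, in capitals, begins 51 bases before the start that this window covers. That start lies 1274 bases downstream of the other listed Errfi1 start, which is the gene start in the RefSeq table and whose window holds no CRE.
Errfi1 promoter: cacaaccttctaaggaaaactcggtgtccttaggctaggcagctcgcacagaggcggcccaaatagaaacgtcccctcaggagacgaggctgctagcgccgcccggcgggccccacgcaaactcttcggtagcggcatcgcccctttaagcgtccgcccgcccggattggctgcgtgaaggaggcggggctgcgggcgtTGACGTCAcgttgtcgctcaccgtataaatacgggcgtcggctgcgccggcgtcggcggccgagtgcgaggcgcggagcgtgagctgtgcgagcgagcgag
The match describes the letters of this window and does not show that a factor binds there.

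**Figure D2:**
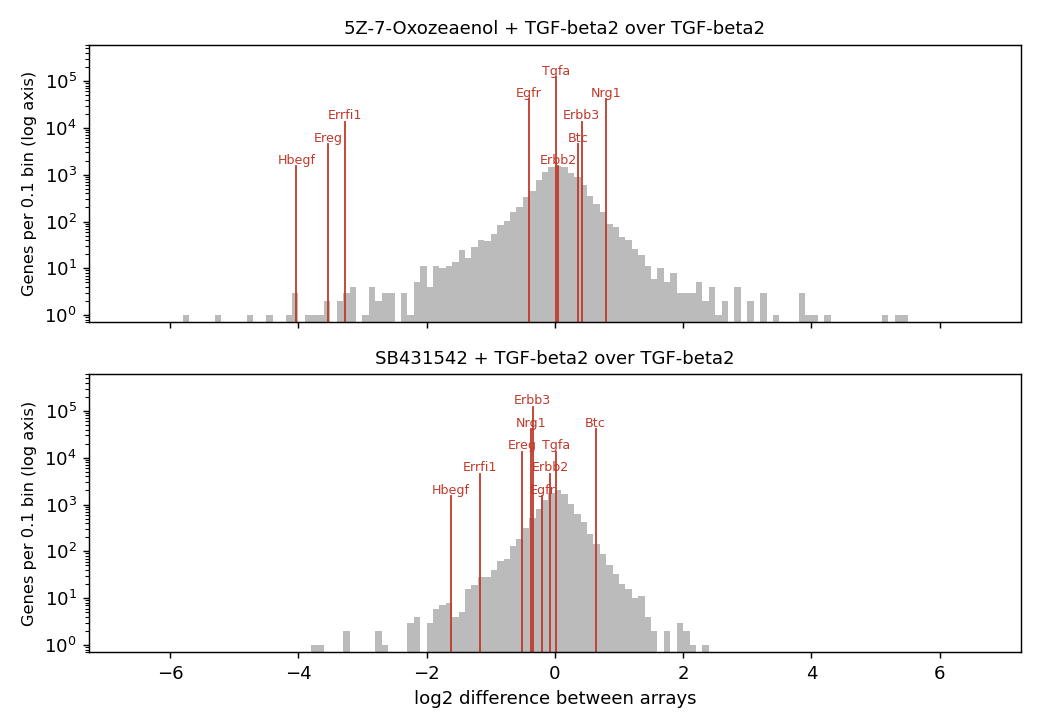
Number of genes (vertical log axis) by log2 difference between 2 arrays (horizontal axis) for 5Z-7-Oxozeaenol with TGF-beta2 over TGF-beta2 alone (top) and SB431542 with TGF-beta2 over TGF-beta2 alone (bottom), for the 11744 kept genes. Red lines, whose heights carry no value, mark the 9 genes of the EGF receptor system, of which Hbegf, Ereg and Errfi1 stand at −4.03, −3.54 and −3.27 in the top plot, and Hbegf and Errfi1 at −1.62 and −1.17 in the bottom plot.

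By count, 3 of the 9 genes (33.3%) were at least 2-fold lower with 5Z-7-Oxozeaenol than with TGF-beta2 alone, where 2.17% of all kept genes were, and none was higher, where 1.82% were. Against the untreated culture the same 3 genes were at least 2-fold lower, beside 1.51% of kept genes, and none was higher, beside 1.49%. With SB431542 over TGF-beta2 alone, 2 of the 9 were lower, beside 1.18%, and none higher, beside 0.613%. SB431542 with TGF-beta2 over untreated had none of the 9 higher or lower, where 0.468% and 0.383% of kept genes were. The comparisons of each inhibitor with TGF-beta2 alone, and of TGF-beta2 with untreated, share the TGF-beta2 array, so a reading off on that array enters all 3. Likewise, all 3 comparisons of 5Z-7-Oxozeaenol rest on its single array. The genes were chosen with earlier results of these data known, so these counts are not independent evidence that they differ from other genes.

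The median log2 difference of the 9 genes was 0.01 with 5Z-7-Oxozeaenol over TGF-beta2 alone, beside 0.05 for all kept genes. Of the 6 genes other than Hbegf, Ereg and Errfi1, only Egfr lay under 0, at −0.41. The middle value of the 9 was that of Tgfa. With SB431542 over TGF-beta2 alone the median of the 9 genes was −0.35, beside 0.03, and with TGF-beta2 over untreated 0.01, beside −0.03.

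The summed signal of the macrophage markers, cells that can also make Hbegf and Ereg, was 43353 with 5Z-7-Oxozeaenol and 47406 with TGF-beta2 alone. The part of these cells in the result was not tested.

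Among the remaining ligands, Nrg1 stood out. It encodes neuregulin 1, which binds ErbB3 and ErbB4. Its probe set, 1456524_at, gave 330 with 5Z-7-Oxozeaenol, 136 with SB431542, 181 with TGF-beta2 alone and 195 in the untreated culture. The inhibitor arrays lay on opposite sides of TGF-beta2 alone, with log2 differences of 0.79 for 5Z-7-Oxozeaenol and −0.37 for SB431542, each within 2-fold. Between the inhibitors, Nrg1 was 2.23-fold higher with 5Z-7-Oxozeaenol (log2 1.16), where 1.51% of kept genes were at least 2-fold higher, and 0.96 on the log2 scale with the pseudocount at the median of all values, which is under 2-fold. Hbegf, Ereg and Errfi1 were at least 2-fold lower in this comparison, beside 1.30% of kept genes.

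Btc encodes betacellulin, a ligand of the EGF receptor and ErbB4. Its kept probe set gave 122 with 5Z-7-Oxozeaenol, 152 with SB431542, 90.3 with TGF-beta2 alone and 143 in the untreated culture, so TGF-beta2 alone was lowest. The log2 differences were −0.55 for TGF-beta2 over untreated and 0.63 for SB431542 over TGF-beta2 alone, both within 2-fold. A dimmer Btc probe set, below the filter, read 21.1, 34.3, 12.3 and 37.8 in the same array order.

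Tgfa encodes transforming growth factor alpha, a ligand of the EGF receptor that despite its name does not signal through TGF-beta receptors. Its brightest probe set gave 136 with 5Z-7-Oxozeaenol, 137 with SB431542, 134 with TGF-beta2 alone and 138 in the untreated culture, the least spread of the probe sets shown. Its second kept probe set lay between 63.5 and 106 over the 4 arrays. The third, 1421942_s_at, was below the filter and read 28.7 with 5Z-7-Oxozeaenol, 49.5 with SB431542, 87.8 with TGF-beta2 alone and 87.6 untreated. The 3 Tgfa probe sets therefore did not show the same pattern.

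**Figure D3:**
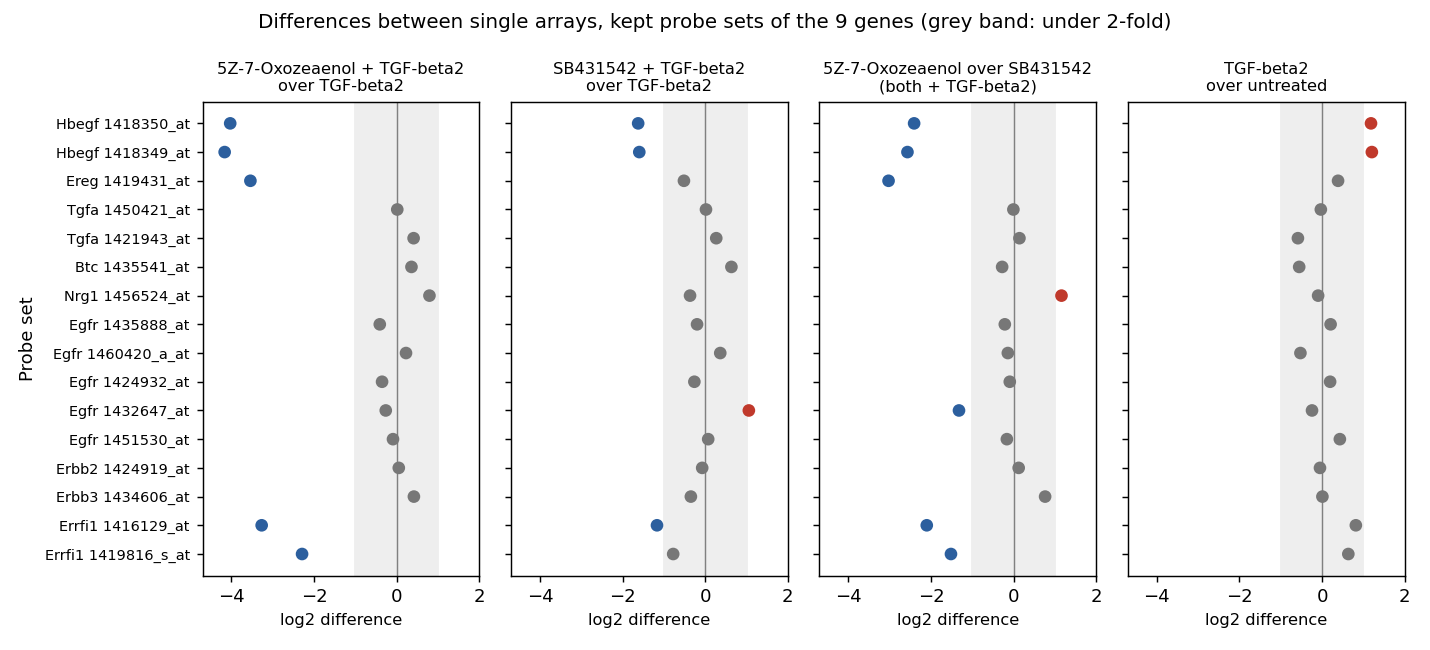
Log2 differences between single arrays (horizontal axis) for each of the 16 kept probe sets (rows) in 4 comparisons (panels), with no error bars because there are no replicates. The grey band is under 2-fold, blue points are at least 2-fold lower and red points at least 2-fold higher. Both Hbegf probe sets lie nearly together in every panel, while the 5 Egfr probe sets scatter on both sides of 0 in 3 of the 4 panels.

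Egfr encodes the receptor for Hbegf, Ereg, Tgfa and Btc products. It was covered by 7 probe sets, of which 5 were kept. The brightest gave 611 with 5Z-7-Oxozeaenol, 712 with SB431542, 819 with TGF-beta2 alone and 707 in the untreated culture. Its log2 differences were −0.41 for 5Z-7-Oxozeaenol over TGF-beta2 alone, −0.20 for SB431542 over TGF-beta2 alone and 0.21 for TGF-beta2 over untreated. Over the 5 kept probe sets, the difference of TGF-beta2 over untreated lay between −0.52 and 0.43, with 3 above 0 and 2 below. For 5Z-7-Oxozeaenol over TGF-beta2 alone it lay between −0.41 and 0.22, with 4 of 5 below 0. For SB431542 over TGF-beta2 alone it lay between −0.26 and 1.06, with 3 above 0, and the mean of the kept probe sets was 0.21, the opposite sign to the brightest. Probe set 1432647_at was the exception to the 2-fold limit. It read 76.7 with 5Z-7-Oxozeaenol, 224 with SB431542, 96.6 with TGF-beta2 alone and 118 untreated, so the SB431542 array was 2.08-fold above TGF-beta2 alone, a difference that none of the other 4 kept probe sets had.

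Erbb2 encodes the receptor partner without a ligand. Its signals were 272 with 5Z-7-Oxozeaenol, 248 with SB431542, 262 with TGF-beta2 alone and 272 in the untreated culture. No comparison moved it by more than 0.12 on the log2 scale. Erbb3, the receptor partner for neuregulins, gave 152 with 5Z-7-Oxozeaenol, 81.0 with SB431542, 109 with TGF-beta2 alone and 108 untreated by its kept probe set. The inhibitor arrays lay on opposite sides of TGF-beta2 alone here too, with log2 differences of 0.42 for 5Z-7-Oxozeaenol and −0.35 for SB431542, and 0.76 between the inhibitors, all within 2-fold. A second Erbb3 probe set read at most 6.75 on any array.

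Epithelial cells can express Erbb3 and Egfr, and the summed signal of the 12 epithelial markers was higher with 5Z-7-Oxozeaenol, at 8822, than with TGF-beta2 alone, at 2877. The markers did not all differ alike, as examples chosen after their values were seen show: Krt14 read 2218 against 295 and Krt5 1383 against 233, while Cldn4 read 336 against 314 and Krt18 400.1 against 311. The part of epithelial cells in the Nrg1 and Erbb3 values was not tested. Erbb3 is also a gene of Schwann cells, and none of the 4 Schwann cell and glia markers measured passed the filter, with Sox10, a defining one, at 92.6, 51.4, 20.7 and 95.7 on the 5Z-7-Oxozeaenol, SB431542, TGF-beta2 and untreated arrays.

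**Figure D4:**
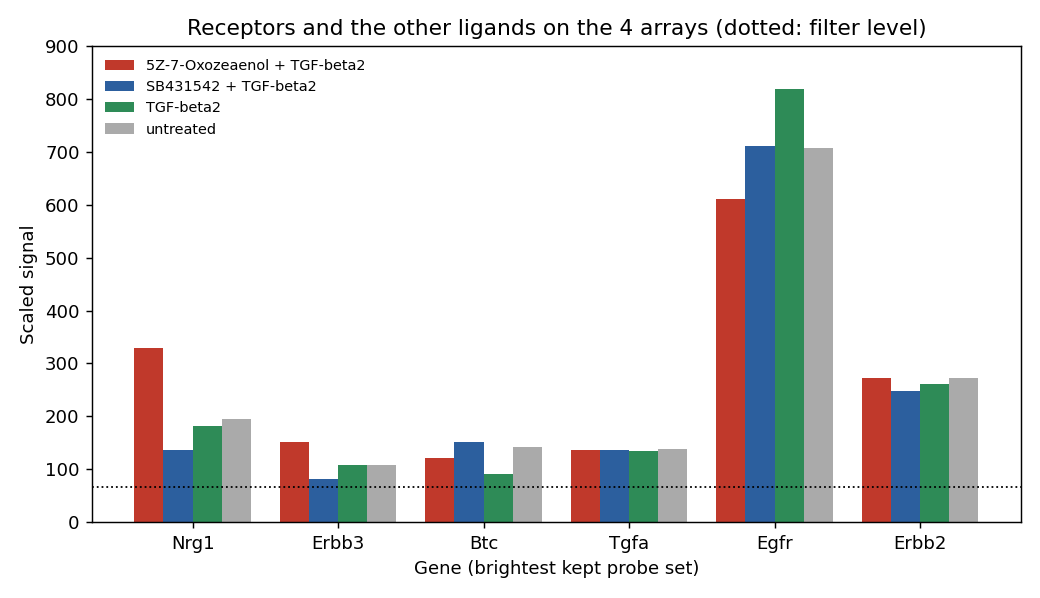
Scaled signal (bars from 0) of the probe set that stands for each of Nrg1, Erbb3, Btc, Tgfa, Egfr and Erbb2 on the 4 arrays, 1 array per treatment and no error bars. Nrg1 reads 330 with 5Z-7-Oxozeaenol against 136 with SB431542, while Erbb2 lies between 248 and 272 on all 4 arrays. Heights are to be compared within a gene only.

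Other genes of the pathway were read as lists. Of 6 further ErbB ligand and receptor genes only Nrg2, a neuregulin gene, was kept. It read 32.3 with 5Z-7-Oxozeaenol, under the filter level, 121 with SB431542, 129 with TGF-beta2 alone and 105 untreated, and the difference of −1.48 over TGF-beta2 alone became −0.96 with the pseudocount at the median. Egf, Epgn, Nrg3 and Nrg4 were below the filter, and Erbb4 read at most 2.85.

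Of 13 genes for the proteases that release ligands and for their regulators, 13 were kept. Of these, 1 was at least 2-fold lower with 5Z-7-Oxozeaenol over TGF-beta2 alone, beside 2.17% of all kept genes. The median log2 difference of the 13 was −0.24, beside 0.05 for all kept genes. The lower gene was Rhbdf2, which encodes iRhom2, a protein that brings the protease Adam17 to the cell surface. Rhbdf2 read 131 with 5Z-7-Oxozeaenol, 268 with SB431542, 420.0 with TGF-beta2 alone and 238 untreated (log2 −1.53). Adam10, another such protease, read 7426, 7501, 8116 and 8381 in that order. Adam17 itself, named after its values were seen, read 1678, 1706, 1726 and 1951. Adam19, from the same list and also named after its values were seen, read 1956, 3244, 3846 and 3307. Its log2 difference of 5Z-7-Oxozeaenol over TGF-beta2 alone was −0.97, just within 2-fold. All 13 genes of the list lay below 0 in that comparison. None of the 13 was at least 2-fold higher or lower with SB431542 over TGF-beta2 alone, beside 0.613% and 1.18% of kept genes. The same held with TGF-beta2 over untreated, beside 0.673% and 0.366%.

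Of 15 adaptor and effector genes, all kept, 1 was lower with 5Z-7-Oxozeaenol over TGF-beta2 alone, where 2.17% of all kept genes were. This was Pik3cb, a catalytic subunit of phosphatidylinositol 3-kinase, at −1.01, or −0.83 and within 2-fold with the pseudocount at the median. Gab1, a docking protein, was higher with 5Z-7-Oxozeaenol than with SB431542, at 570 against 274, where 1.51% of kept genes were at least 2-fold higher. Its log2 difference of 1.00 is at the 2-fold limit and is lost under either scaling alternative and with the pseudocount at the median. Of 18 genes for other negative regulators and receptor trafficking, all kept, 1 was lower with 5Z-7-Oxozeaenol over TGF-beta2 alone, beside the same 2.17%. It was Ptpn12, a tyrosine phosphatase gene, at −1.05, or −0.80 and within 2-fold by the mean of its kept probe sets. Lrig3, of a family of membrane proteins that act on receptor kinases, was higher with 5Z-7-Oxozeaenol than with SB431542, at 1634 against 742 (log2 1.12). This again stands beside 1.51% of kept genes. Lrig3 was also higher with 5Z-7-Oxozeaenol than in the untreated culture, which read 776 (log2 1.05), beside 1.49% of kept genes. Of 13 genes of the Ras to ERK cascade, 7 were kept, 6 were not analysed here, and none of the 7 differed by 2-fold in any of the 6 comparisons, Map2k1, the kinase that activates ERK, reading 4380, 4609, 5353 and 5551 with 5Z-7-Oxozeaenol, SB431542, TGF-beta2 alone and no treatment.

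Early and feedback genes linked to ERK showed larger differences. Of 21 such genes, all kept, 18 were at least 2-fold lower with 5Z-7-Oxozeaenol over TGF-beta2 alone, beside 2.17% of all kept genes. None was higher, beside 1.82%, and the median log2 difference was −2.78 beside 0.05 for all kept genes. With SB431542 over TGF-beta2 alone 5 were lower, beside 1.18%, and none higher, beside 0.613%, with a median of −0.45 beside 0.03. With TGF-beta2 over untreated 6 were higher, beside 0.673%, and none lower, beside 0.366%, with a median of 0.50 beside −0.03. The list was written with results of these data known and is not independent evidence of a direction.

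The genes whose pattern over the 4 arrays was most like that of a responsive gene were found by the distance between log2 profiles, each centred on its own mean. For Errfi1 they were Egr3, an early transcription factor gene, Sema7a and Clcf1, at distances of 0.11, 0.31 and 0.34. Egr3 read 42.2 with 5Z-7-Oxozeaenol, 281 with SB431542, 605 with TGF-beta2 alone and 354 untreated. For Hbegf they were Dusp4, a phosphatase gene of the MAP kinase feedback, Rgs1 and Egr3 (0.32, 0.45 and 0.55). For Ereg they were Phlda1, Fosl1 and Rgs16 (0.36, 0.47 and 0.47), and for Nrg1 Pfkfb3, Ndufaf7 and Ptch1 (0.10, 0.11 and 0.12). These likenesses rest on 4 arrays, and many genes can share a pattern of so few points. With 5Z-7-Oxozeaenol, Egr3 (42.2), Dusp4 (32.9) and Rgs1 (57.9) read under the filter level. The distances of these near genes therefore depend on the pseudocount, and their dependence on it was not tested.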

How the data were processed

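RNA of 4 cultures was read on 1 Affymetrix array each. The deposited values are linear intensity values, 1 per array and probe set. The submitters' processing notes name GCOS, the Affymetrix array software, with no version or settings. The authors had scaled the arrays, since the deposited intensities have a mean of 500.0 on each array once 2% of probe sets at either end are set aside. From these, 64 control probe sets were left out, and 34945 probe sets with 1 gene symbol were used, 932 with several and 9160 with none not. The pseudocount of 21.7 is the 25th percentile of all values. The filter kept 20064 probe sets of 11744 genes. Pearson correlations of log2 values between arrays, across probe sets, were 0.975 to 0.982. With 1 array a group there is no test, and the number of arrays limits the precision. Genes were counted by a 2-fold rule, and the counting was tested on simulated data. In these only bright genes were altered, by well over 2-fold and with an assumed noise. Changes in dim genes and changes near 2-fold were therefore not covered. Named genes were drawn from the members, list genes at least 2-fold apart, up to 4 of the brightest examples per list, and markers. The 3 nearest patterns among genes outside the members were also named, for each member that differed by 2-fold. Not every ERK-linked gene at least 2-fold apart was named. Adam17 and Adam19 were named after their values were seen. Members and lists were chosen with earlier results of these data known. Alternatives changed the pseudocount, filter, scaling and the probe set summary. Python 3.11.15, numpy 2.4.6 and pandas 2.3.3 were used.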

Additional observations from a re-analysis of the deposited data

Results flagged for a closer look

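In 2 probe sets the inhibitor arrays lay on opposite sides of TGF-beta2 alone and at least 2-fold apart from each other, a difference that was not tested because each treatment has 1 array. Nrg1 (1456524_at) was 1.16 higher on the log2 scale with 5Z-7-Oxozeaenol than with SB431542. Egfr probe set 1432647_at differed by −1.32, with 76.7 with 5Z-7-Oxozeaenol against 224 with SB431542, while the other 4 kept Egfr probe sets differed by −0.21 to −0.09 in this comparison.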

How the results depend on the processing

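No paired analysis was possible because each treatment has 1 array, and for the same reason no array could be left out. Over the 7 alternatives, 82 of 84 counts of the 9 genes stayed within 1.5 times the reported count. This includes counts of 0 that stayed at 0. The count lower with SB431542 over TGF-beta2 alone was 1 in place of 2 with the mean of kept probe sets, since Errfi1 then gave −0.97. The count higher with 5Z-7-Oxozeaenol over SB431542 was 0 in place of 1 with the pseudocount at the median, where Nrg1 gave 0.96. The stricter filter kept 7 of the 9 genes, without Btc and Erbb3. For Hbegf, 5Z-7-Oxozeaenol over TGF-beta2 alone ranged from −4.10 to −3.94, for Ereg from −3.63 to −3.29 and for Errfi1 from −3.34 to −2.78. Of list counts, 489 of 504 stayed within that limit, again including counts of 0 that stayed at 0. Of the counts over all kept genes, 29 of 84 did not stay within it. With no filter, for example, 351 genes in place of 79 were higher with TGF-beta2 over untreated. With the pseudocount at the median, the further ErbB ligands had 0 lower with 5Z-7-Oxozeaenol in place of 1 against each of the other 3 arrays. The stricter filter also gave 0 there, but only because it left no gene of this list. With no filter their median over untreated turned to 0.13, since the genes below the filter then entered it, while Nrg2 stayed at −1.24. The adaptors had 0 lower with 5Z-7-Oxozeaenol over TGF-beta2 alone with the pseudocount at the median, 0 higher over SB431542 with that pseudocount, quantile normalization or median centring, and 1 lower over untreated with the pseudocount at the 10th percentile. The proteases had 2 lower over TGF-beta2 alone with median centring and 1 lower over SB431542 with the pseudocount at the 10th percentile. The other negative regulators had 0 lower over TGF-beta2 alone, and the ERK-linked genes 0 higher with SB431542 over untreated, with the mean of kept probe sets. The causes of the other changes were not tested. Erbb2, Erbb3 and Tgfa had differences near 0 whose sign changed with the scaling.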
